A study of Mus musculus with 3 samples.

Results

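Ependymal cells are the ciliated epithelial cells that line the brain ventricles. Here they were the cells in which at least 4 of 8 panel genes (Ccdc153, Tmem212, Rarres2, Mia, Dynlrb2, Foxj1, Fam183b and Meig1) had at least 1 UMI, the molecular tag counted once per captured transcript. Barcodes entered only if 300 or more genes were seen in them and no more than 25% of their UMIs were mitochondrial. It found 243 ependymal cells among 1629 kept cells of 3 single-cell libraries. Because the panel was read in the same cells, the levels of the panel genes, and every contrast with all remaining cells, are given as a description with no test.

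The cells came from the dissociated lateral wall of the lateral ventricle, the subventricular zone, of adult mice (n = 5, age not given in the sources used here). All mice carried aSMACreERt2::Rosa26-tdTomato crossed to B6;129S-Sox2tm2Hoch/J on a background of C57/Bl6(3/4) with 129S1SvlmJ(1/4). A tamoxifen-dependent Cre under the smooth muscle actin promoter marks cells with the red protein tdTomato, and GFP reports Sox2, so every group was sorted GFP-positive. A single library came from the tdTomato-positive gate, with 1200 sorted cells. The tdTomato-negative gate gave a pair, called here tdTomato-negative 1 and 2, with 1200 and 6000 sorted cells. Gates were set with wild-type cells, and cortex served to separate a pair of tdTomato-positive populations. The labels do not say that the libraries came from separate mice, so the spread between them may be technical.

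Multiciliated ependymal cells beat bundles of motile cilia that move cerebrospinal fluid. Geminin-family proteins and Myb start the programme that multiplies basal bodies, and Foxj1 and the RFX factors switch on genes for dynein arms, radial spokes and the central pair. In the adult ventricle wall these cells stand beside Gfap-expressing astroglia, some of which act as neural stem cells, and the series' title concerns the neural stem cell function of ependymal cells.

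Ependymal cells made up 182 of 252 kept cells in the tdTomato-positive library (72.2%, exact Clopper-Pearson 95% interval 66.3 to 77.7%). They made up 14 of 256 in tdTomato-negative 1 (5.47%, 3.02 to 9.01%) and 47 of 1121 in tdTomato-negative 2 (4.19%, 3.10 to 5.54%). The sort gate can set these shares, and with 1 tdTomato-positive library no test was made. Intervals cover counting error only. The 3 libraries held 5311974 UMIs in 1700 barcodes, of which the ependymal cells held 613065, 76684 and 186652 in the order just given. Median depth was 3291.5, 4290.5 and 4304 UMIs per ependymal cell, and median mitochondrial share was 8.97%, 5.43% and 7.22%. The mitochondrial filter removed another 38, 1 and 4 barcodes that had at least 4 panel genes. Across libraries 3 kept barcodes recurred, 1 of them in an ependymal cell. Level is given below in CPM, the UMIs of a gene scaled to the total UMIs of the summed cells. In tdTomato-negative 1 a single UMI is worth 13.0 CPM, so its low values are coarse. A pair of deep cells above 10000 UMIs held 41.4% of the ependymal UMIs of that library. A gene absent from both stands 1.71 times higher there without them. For ependymal cells, the tdTomato-negative 1 level without this pair follows in square brackets, a setting chosen after the data were seen.

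**Figure D1:**
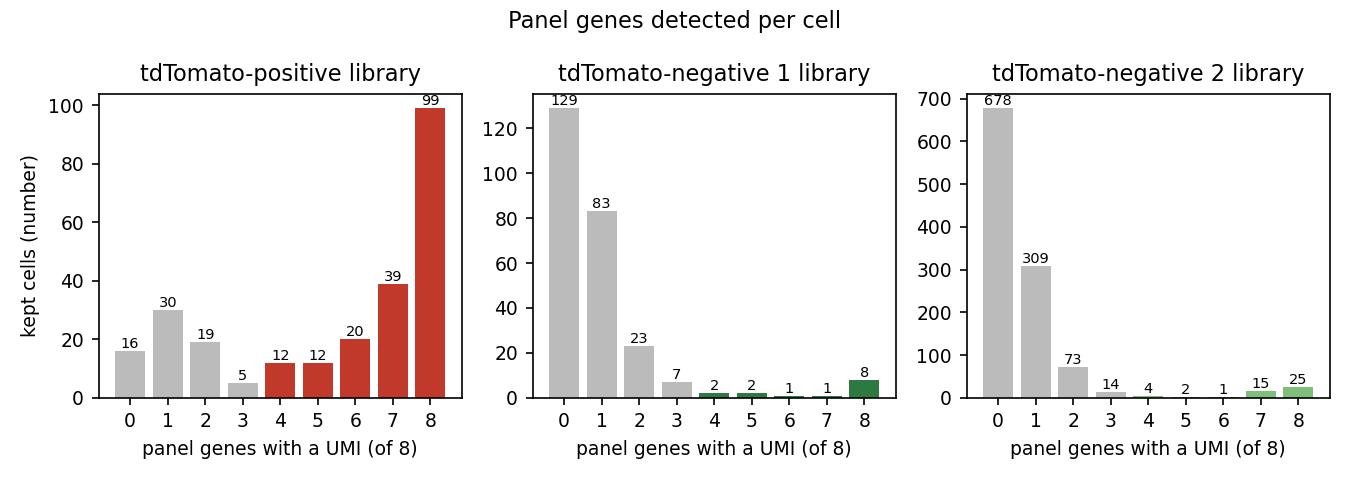
Kept cells (y axis, number) by how many of the 8 panel genes had a UMI (x axis), 1 panel per library, with coloured bars for ependymal cells and grey bars for the others. Most cells held 0 or 1 panel gene or else 7 or 8, and 99 of the tdTomato-positive cells held all 8.

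Most members were far from the threshold. All 8 panel genes were seen in 132 cells, 7 in 55, 6 in 22, 5 in 16 and 4 in 18. The 18 cells just inside had a median of 1033 UMIs and 18.6% mitochondrial UMIs, and the 26 cells just outside, with 3 panel genes, had 4545.5 UMIs and 3.51%. Of those 26, 14 held at least 3 of 8 neuroblast markers. Ccdc153, a coiled-coil protein gene used as an ependymal marker, stood at 2667, 1304 [2202] and 2748 CPM in ependymal cells of tdTomato-positive, tdTomato-negative 1 and tdTomato-negative 2. Foxj1 (chr11:116330704-116335399, GRCm38), the forkhead factor of motile cilia, stood at 465, 248 [400.4] and 375 CPM. On all cells the 8 panel genes were lowest in tdTomato-negative 1. This order rested in part on the members of low axoneme share described below. Without all 11 of them, Ccdc153 (2782, 2202 and 2887 CPM), Tmem212 (1535, 1246 and 1830) and Fam183b (1315, 1090 and 1271) were still lowest there. Rarres2, Mia, Dynlrb2, Foxj1 and Meig1 were not. Rarres2, a secreted protein, stood at 3907, 4538 and 4401 CPM, highest in that library. Dynlrb2, a dynein light chain, then stood at 1158, 1290.2 and 1508 CPM.

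Genes of the ciliary shaft that the rule did not use separated most, but not all, of these cells from astroglia. Astroglia were cells with at least 4 of 8 astroglia markers that were not ependymal, 13, 56 and 292 cells (361 in all). The comparison used 90 genes for dynein arms, spokes, central pair and nexin links, with the panel left out. They took a median of 1.55%, 1.75% and 1.66% of the UMIs of an ependymal cell, against 0.0984%, 0.0705% and 0.0491% of an astroglia cell. In the tdTomato-positive library 174 of 182 ependymal cells lay above every astroglia cell, in tdTomato-negative 1 it was 12 of 14, and in tdTomato-negative 2 it was 46 of 47. Those 232 cells spanned 0.620% to 2.67%.

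The other 11 members held 0.0268% to 0.274% and carried markers of other cells. All 8 microglia markers were seen in a cell of 2275 UMIs and in a cell of 3725 UMIs. Cells of 2186, 2656 and 3761 UMIs held 7, 8 and 7 of the 8 astroglia markers. A cell of 9630 UMIs held 7 of 8 endothelial and 6 of 8 mural markers, a cell of 1483 UMIs held 5 mural markers, and a cell of 1022 UMIs held 6 of 8 neuroblast markers. These 8 were tdTomato-positive. The remaining 3 were dividing: cells of 12522 and 19209 UMIs in tdTomato-negative 1 held all 8 division genes (Mki67, Top2a, Cdk1, Birc5, Ube2c, Ccnb1, Ccna2 and Cenpf), and a cell of 9645 UMIs in tdTomato-negative 2 held 6. The label thus fits 232 of the 243 cells by their axoneme genes, and for the other 11 the data go against it. All 11 stay in the class as the rule defines it. The first 2 of these dividing cells are the deep pair.

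**Figure D2:**
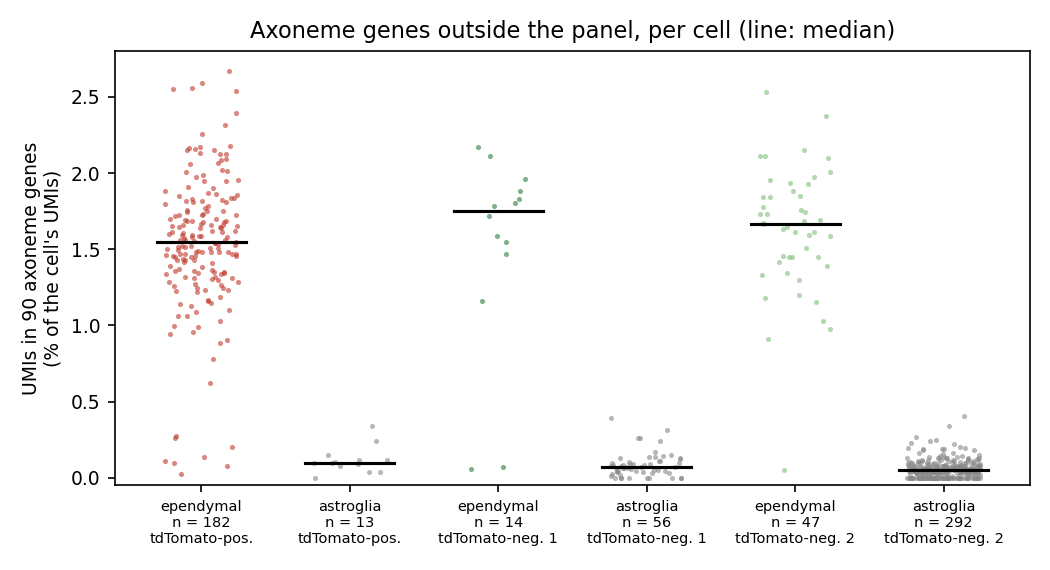
Share of a cell's UMIs (y axis, %) in 90 axoneme genes outside the panel, 1 point per cell, for ependymal cells (coloured) and astroglia (grey) of each library, with the median as a line. Ependymal medians were 1.55%, 1.75% and 1.66%, and 11 ependymal cells lay within the range of astroglia.

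Set beside all other kept cells, the ependymal sums were at least 4-fold higher in all 3 libraries for 175 of 17266 genes (1.01%, after adding 20 CPM to both sides) and at least 4-fold lower for 31 (0.18%). Of the 175, 8 were the panel genes, and 41, panel genes included, belonged to a cilium list. Outside the panel, the gene with the largest fold in its lowest library was Cfap126, a protein of the motile cilium and its basal body. It stood at 779.7, 496 [845] and 836 CPM in ependymal cells and at 37.3, 10.6 and 10.0 CPM in the other cells. Lbp, the lipopolysaccharide-binding protein, followed at 219, 209 [356] and 257 CPM against 0, 0 and 3.24. The gene was seen in 50.6% of ependymal cells and 0.277% of astroglia, at median depths of 3662 and 2719 UMIs. The other genes of this top group were Hist1h4h, Cdhr4, Gm10714, Calml4, Ccdc33, 1700088E04Rik, Sntn and 1700016K19Rik. Sntn encodes sentan of the ciliary tip and stood at 528, 274 [467] and 573 CPM. Hist1h4h, a histone gene, stood at 1029, 665 [1135] and 846 CPM against 74.6, 22.4 and 23.2 in the other cells.

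Ependymal cells were next compared with astroglia within libraries, by edgeR's quasi-likelihood test on 6 sums, with a block for library that left 2 residual degrees of freedom. Of 3627 genes tested, 653 were higher (18.0%) and 334 lower (9.21%) at an adjusted p under 0.05, with a median log2 difference of 0.02. A gene that varies with the markers differs here through the choice of cells, and many cilium genes passed the count filter on ependymal UMIs alone. Some other genes passed it only on UMIs of the class where they were high. The counts, differences and adjusted p values of such genes are therefore a description and not support.

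Few regulators of multiciliation had enough UMIs to be tested. Of 19 listed regulators outside the panel, 4 could be tested and 3 were higher in ependymal cells. Ccdc78, a component of the deuterosome that builds basal bodies, stood at 135, 104 [178] and 102 CPM against 42.5, 4.68 and 3.75 in astroglia, a log2 difference of 4.31 ± 0.64 (SE, edgeR adjusted p = 4.22e-10). Myb, a transcription factor of early multiciliation, differed by 3.57 ± 0.79 (adjusted p = 5.06e-05), and Rfx3, a ciliary RFX factor, by 1.53 ± 0.47 (adjusted p = 0.00624). Other regulators of this step had few UMIs. Mcidas had no UMI in any of the 243 cells, which allows up to 1.23% of cells with a captured UMI and sets no limit on cells that express it. Gmnc was seen in 10 cells, Ccno in 4 and Ccdc67 (Deup1) in 25.

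Of 39 listed genes for dynein arms, the motors of the beat, outside the panel, 22 could be tested and 21 were higher, with a list median of 5.49 on the log2 scale. Dnah12, an inner-arm heavy chain, stood at 450.2, 299.9 [512] and 493 CPM in ependymal cells and had 1 UMI in all astroglia. It was seen in 72.0% of ependymal cells and in 0.277% of astroglia. Tctex1d4, a dynein light chain of the Tctex family, stood at 413, 274 [467] and 375 CPM, and differed by 5.93 ± 0.59 (edgeR adjusted p = 1.23e-19). Dnali1, an inner-arm light intermediate chain, differed by 4.45 ± 0.56 (adjusted p = 1.53e-13). Wdr63, an inner-arm intermediate chain, stood at 191, 104 [178] and 214 CPM and had no UMI in astroglia. Its difference was at least 6.35 on the log2 scale against a floor of 3 UMIs over the astroglia sums.

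Spokes, central pair, nexin links and inner tubule proteins gave 40 of 40 tested genes higher, from a list of 51, with a median of 5.43. Rsph1, a radial spoke head protein, stood at 1046, 717 [1201] and 1436 CPM against 85.0, 32.7 and 14.1 in astroglia, a log2 difference of 5.48 ± 0.63 (edgeR adjusted p = 6.84e-16). Enkur, a microtubule inner protein, stood at 528, 326 [556] and 488 CPM and differed by 6.07 ± 0.59. Cfap206, a radial spoke docking protein, stood at 161, 156 [267] and 129 CPM with no UMI in astroglia, a difference of at least 6.06. For Rsph1, Enkur and Cfap206 the lowest ependymal sum lay above the highest astroglia sum.

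Intraflagellar transport, BBSome and transition zone genes, which every ciliated cell uses, differed less. Of 51 present in the files, 30 could be tested, 22 were higher and none was lower, with a median of 1.84. Ift20 stood at 344, 248 [289] and 423 CPM against 127, 126 and 99.4, a difference of 1.63 ± 0.42 (edgeR adjusted p = 5.75e-04). Arl3, a ciliary small GTPase, stood at 411, 391 [400.4] and 369.7 CPM against 255, 201 and 180.1, and its difference of 0.97 ± 0.40 did not pass (adjusted p = 0.0563). The lowest ependymal sum of both genes still lay above the highest astroglia sum.

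The sequence before the start site was searched for the X-box, the motif of RFX factors. It was searched as GTNNCC and GNAAC with 3 free bases between them, on both strands, in the 250 bases before each RefSeq start (GRCm38.p6). It was found in 2.07% of 27025 genes with a promoter, in 4.25% of the 3719 matched genes with at least 30 UMIs in ependymal cells, and in 7.59% of the 145 matched genes that were at least 4-fold higher than in other cells. Shares were 3 of 17 for matched multiciliation regulators, 5 of 33 for dynein arms, 7 of 43 for spokes and central pair, and 7 of 45 for intraflagellar transport and BBSome genes. The panel had 0 of 6 matched genes. The forkhead motif GTAAACA was in 3.54% of all genes in 11 of the 145 genes that were at least 4-fold higher (7.59%), in 3 of 43 spoke and central pair genes (6.98%) and in 0 of 33 dynein arm genes. A match is a description, and no match says only that these letters are not in the window.

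The sequences below show where the match lies, and what surrounds it, in genes of different ciliary parts; the fixed letters are alike because the search required them. Each reads 5′ to 3′ on the strand of its gene, ends before the start site, and has the 14 bases of the match in capitals, in either orientation. Hydin, Cfap44, Cfap45, Spag16 and Iqca belong to the axoneme, Ccdc67 to the basal body programme, and Ift57 and Ttc26 to transport. Btbd17 is shown as a counterexample, since it has a match and was lower in ependymal cells. These genes were chosen after their matches were seen.
Cfap206: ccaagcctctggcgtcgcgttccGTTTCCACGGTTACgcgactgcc
Hydin: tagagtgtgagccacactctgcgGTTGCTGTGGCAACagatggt
Cfap44: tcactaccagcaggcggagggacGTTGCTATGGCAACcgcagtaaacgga
Cfap45: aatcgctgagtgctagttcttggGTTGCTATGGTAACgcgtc
Spag16: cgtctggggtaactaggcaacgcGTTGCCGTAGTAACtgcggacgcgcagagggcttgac
Iqca: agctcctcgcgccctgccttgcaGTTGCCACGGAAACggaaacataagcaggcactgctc
Ccdc67: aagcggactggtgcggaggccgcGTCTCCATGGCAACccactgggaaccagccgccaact
Ift57: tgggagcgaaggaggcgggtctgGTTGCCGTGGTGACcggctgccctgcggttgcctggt
Ttc26: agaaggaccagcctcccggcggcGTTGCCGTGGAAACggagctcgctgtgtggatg
Btbd17: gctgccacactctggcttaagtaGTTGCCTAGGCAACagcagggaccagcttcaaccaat

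The first of them, Cfap206, is the stretch chr4:34730207-34730252 on the minus strand, and its match ends 9 bases before the start. Hydin lies at chr8:110266933-110266976, Cfap44 at chr16:44394749-44394798, Cfap45 at chr1:172521088-172521129 and Spag16 at chr1:69826844-69826903, all on the plus strand. Iqca lies at chr1:90153500-90153559 and Ccdc67 at chr9:15627897-15627956, both on the minus strand. Ift57 lies at chr16:49699184-49699243 and Ttc26 at chr6:38381468-38381523, both plus, and Btbd17 at chr11:114795994-114796053, minus. All are upstream of an annotated start and outside the transcript that begins there. Hydin, of the central pair, stood at 140.3, 104 [178] and 145 CPM in ependymal cells and had 1 UMI in astroglia. Iqca, of the nexin link, stood at 289, 169.5 [289] and 354 CPM against 0, 0 and 4.69, a log2 difference of 6.38 ± 0.63. Btbd17, a BTB-domain protein, stood at 11.4, 0 and 5.36 CPM against 1147, 252 and 461, a difference of -6.42 ± 0.59. It passed the count filter on astroglia UMIs alone, so no p is given.

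**Figure D3:**
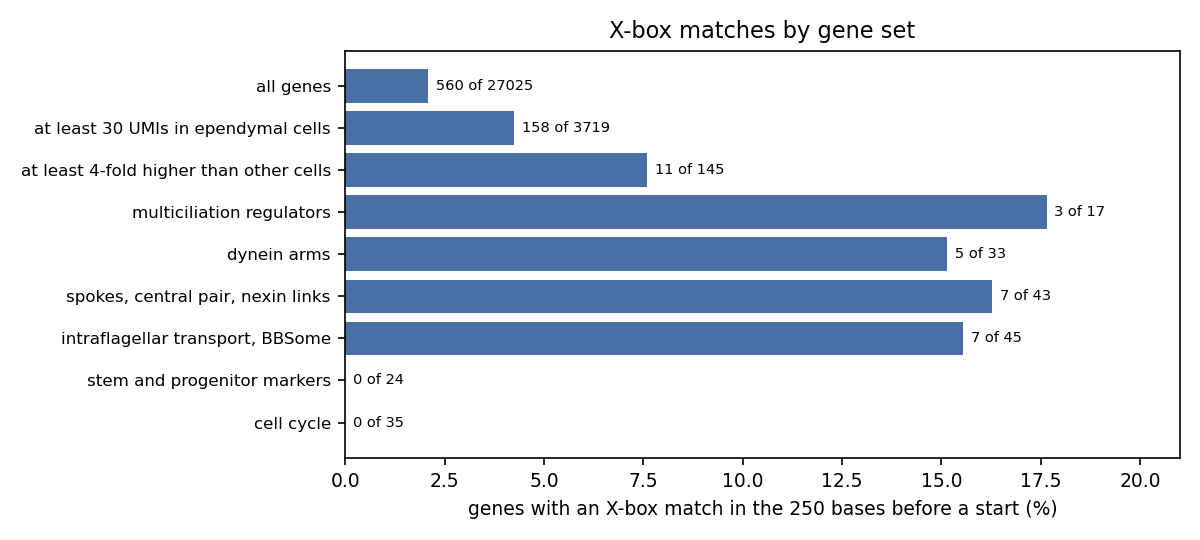
Share of genes (x axis, %) with an X-box match in the 250 bases before a RefSeq start, for all genes, 2 sets chosen by level and 6 fixed lists, with the number of genes beside each bar. The 4 cilium lists lay between 15.2% and 17.6%, against 2.07% of all genes.

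Surface, transport and secreted genes split, where 18.0% of all 3627 genes tested were higher and 9.21% lower. Of 13 tested genes for polarity, adhesion and junctions, 4 were higher (Cdhr3, Cdhr4, Ctnna1 and Dchs1) and 2 lower (Gjb6 and Vcam1). Cdhr4, a cadherin-related protein, stood at 401, 287 [467] and 305 CPM and had 2 UMIs in astroglia. Vcam1, an adhesion molecule of stem cells at the ventricle, stood at 21.2, 13.0 [22.2] and 5.36 CPM against 339.8, 51.4 and 96.6, a log2 difference of -3.62 ± 0.63. It passed the count filter on astroglia UMIs alone, so no p is given. In all, 2 of 13 tested transport genes were higher and 7 lower.

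Aqp4, the water channel, is used by both cell types. It stood at 607, 287 [489] and 514 CPM against 467, 299 and 309, and its difference of 0.44 ± 0.41 did not pass (edgeR adjusted p = 0.506). On all cells the groups overlapped. Without the 11 members of low axoneme share the ependymal sums were 600.3, 489 and 542 CPM, all above the astroglia sums. Slc2a1, the glucose transporter of barriers, was higher by 1.86 ± 0.43 (adjusted p = 1.19e-04), and Slc1a3, a glutamate transporter, was lower by a log2 difference of -2.67 ± 0.50 (adjusted p = 1.46e-06). Of 15 secreted and extracellular genes tested, 4 were higher (Pltp, Sparc, Timp2 and Ucma) and 7 lower. Pltp, the phospholipid transfer protein, stood at 1075, 482 [801] and 1018 CPM against 127, 28.1 and 15.9, and its difference was 4.92 ± 0.58. Its astroglia sums alone would not have passed the count filter, so no p is given. Cst3, cystatin C, differed by -2.39 ± 0.55 (adjusted p = 1.11e-04). Apoe and Clu, apolipoproteins that both cells secrete, differed by -0.69 ± 0.51 and 0.03 ± 0.50 and did not pass (adjusted p = 0.371 and 0.981).

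Markers of stem and progenitor cells were not lost as a block. Of 25 tested, 3 were higher in ependymal cells (Vim, Cd24a and Cd9), 11 were lower and 11 did not pass. Over all 3627 genes tested 18.0% were higher and 9.21% lower. Sox2, the stem cell factor whose reporter defined the sort, stood at 209, 287 [400.4] and 241 CPM against 297, 215 and 232 in astroglia. Its difference was 0.09 ± 0.39 (edgeR adjusted p = 0.901), and the groups overlapped. Vim, an intermediate filament of ependymal and radial cells, stood at 706, 365 [512] and 573 CPM against 127, 182 and 169.8, a difference of 1.64 ± 0.43 (adjusted p = 8.88e-04). Cd24a, a surface protein used to sort ependymal cells and neuroblasts, stood at 980.3, 769 [756] and 654 CPM against 85.0, 318 and 148 (2.03 ± 0.46, adjusted p = 8.86e-05). The lowest ependymal sum of Vim and of Cd24a lay above the highest astroglia sum. S100b, a calcium-binding glial protein, differed by 0.99 ± 0.48 and did not pass (adjusted p = 0.121).

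Among the 11 that were lower were Gfap and Egfr. Gfap, the filament of astroglia, stood at 121, 39.1 [66.7] and 26.8 CPM against 0, 262 and 176, a log2 difference of -1.56 ± 0.46 (edgeR adjusted p = 0.00397). The groups overlapped, because the tdTomato-positive library went the other way: its 13 astroglia had no Gfap UMI, and 1 ependymal cell, with 7 astroglia markers, held 33 of 74 UMIs. Without the 11 members of low axoneme share, Gfap stood at 42.6, 66.7 and 28.2 CPM. Egfr, the receptor of activated progenitors, had UMIs in 6 of 243 ependymal cells and 74 of 361 astroglia (2.47% and 20.5%) and differed by -2.01 ± 0.66 (adjusted p = 0.00999). Its 4 UMIs in tdTomato-negative 1 lay in 1 of the dividing cells.

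Most Notch and BMP genes that passed were lower too. Of 7 tested, Smad5, a BMP effector, was higher (1.76 ± 0.49, edgeR adjusted p = 0.00199), and Hes1, Id3, Lfng and Nrarp were lower. Over all 3627 genes tested 18.0% were higher and 9.21% lower. Hes1, the Notch target that holds stem cells back from differentiation, stood at 214, 143 [245] and 214 CPM against 1827, 285 and 326, a difference of -1.53 ± 0.42 (adjusted p = 0.00169). Id3, a BMP target, stood at 52.2, 13.0 [22.2] and 80.4 CPM against 255, 323 and 476 (-2.67 ± 0.46, adjusted p = 8.49e-08). For both genes every astroglia sum lay above every ependymal sum.

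Few ependymal cells held division genes. At least 3 of the 8 division genes were seen in 1 of 182, 3 of 14 and 2 of 47 cells, 6 of 243 in all (2.47%, exact interval 0.911 to 5.30%). Among astroglia it was 0 of 13, 7 of 56 (12.5%) and 34 of 292 (11.6%), 41 of 361 in all (11.4%, 8.27 to 15.1%). The pooled shares mix libraries in different proportions. Within tdTomato-negative 1 the ependymal share (21.4%, 4.66 to 50.8%) was above that of astroglia (5.18 to 24.1%), and within tdTomato-negative 2 it was below (4.26%, 0.520 to 14.5%, against 8.20 to 15.9%), with overlapping intervals in both. Of the 6 cells, 3 had 7 or 8 panel genes and only 3 division genes each, and the other 3 were the dividing cells of low axoneme share. Of 25 tested cell cycle genes 3 were lower than in astroglia (Cdk1, Gmnn and Pcna), none was higher and 22 did not pass. Over all 3627 genes tested 9.21% were lower, so the 3 lower genes are near that share. Mki67, the classical proliferation marker, stood at 1.63, 196 [0] and 21.4 CPM, of which 15 of the 15 UMIs in tdTomato-negative 1 lay in the pair of deep cells. Its difference from astroglia, -0.51 ± 0.49, did not pass (edgeR adjusted p = 0.505). Cdkn1a, the p21 inhibitor of the cell cycle, was higher at 88.1, 104 [178] and 139 CPM against 0, 14.0 and 15.0 (3.18 ± 0.52). It passed the count filter on ependymal UMIs alone, so no p is given.

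**Figure D4:**
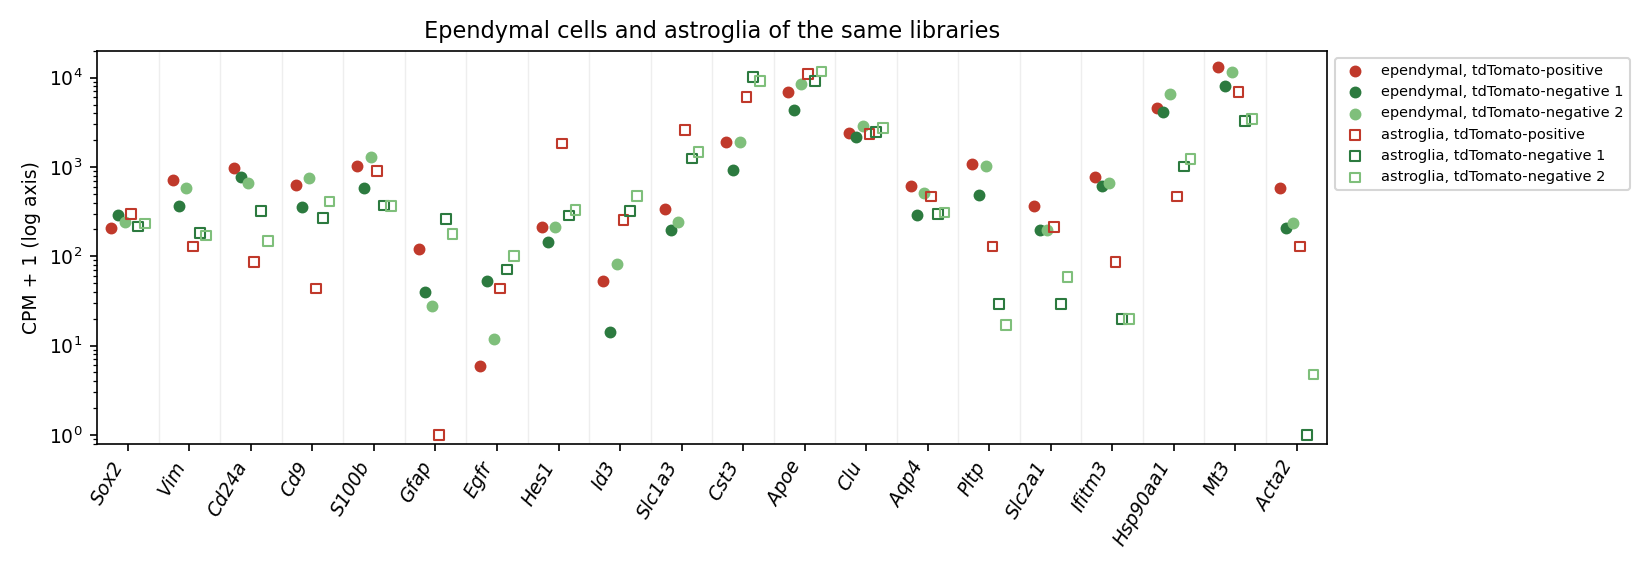
Level (y axis, CPM + 1, log axis) of 20 genes in ependymal cells (filled circles) and astroglia (open squares) of the 3 libraries, 1 point per library. Sox2, Clu and Aqp4 overlap, Vim, Cd24a, Pltp and Ifitm3 are higher in ependymal cells, and Id3, Slc1a3 and Cst3 are lower.

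The Cre was driven by the promoter of smooth muscle actin, Acta2, which had UMIs in ependymal cells of both gates. Of 8 tested contractile genes 6 were higher than in astroglia (Acta2, Cald1, Cnn3, Myl9, Tagln and Tagln2), where 18.0% of all 3627 genes tested were higher. Acta2 (chr19:34241090-34255590, GRCm38), smooth muscle actin, stood at 586, 209 [356] and 236 CPM against 127, 0 and 3.75, a log2 difference of 5.19 ± 0.59. Its astroglia sums alone would not have passed the count filter, so no p is given. It was seen in 127 of 182, 5 of 14 and 20 of 47 ependymal cells and in 7 of 361 astroglia. Of the 8 mural markers, 7 had no UMI in ependymal cells of tdTomato-negative 1 and 6 had none in tdTomato-negative 2. Among them Myh11, of smooth muscle, had no UMI in any kept cell and so checks nothing. In the tdTomato-positive library the 8 mural markers summed to 263 CPM, 108 of it Tagln.

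Of 14 tested immediate early and dissociation stress genes, 6 were higher, 1 was lower and 7 did not pass. Hsp90aa1, a cytosolic chaperone, stood at 4618, 4159.9 [5406] and 6595 CPM against 467, 1010.0 and 1229, a log2 difference of 2.57 ± 0.54 (edgeR adjusted p = 2.21e-05). The immediate early factors Jun and Jund differed by 0.41 ± 0.41 and 0.99 ± 0.41 and did not pass (adjusted p = 0.541 and 0.0571). Of 17 metallothionein and redox genes 7 were higher, among them Mt3 (13010.0, 7994 [13414] and 11513 CPM against 6839, 3273 and 3467, adjusted p = 0.0322). Ifitm3, an interferon-induced membrane protein, stood at 778, 613 [1046] and 659 CPM against 85.0, 18.7 and 18.8 (4.87 ± 0.54). Its astroglia sums alone would not have passed the count filter, so no p is given. It was the 1 interferon gene of 5 to pass. Over all 3627 genes tested 18.0% were higher, so this count is near that share. The median mitochondrial share was 8.97%, 5.43% and 7.22% in ependymal cells and 9.82%, 4.18% and 4.34% in astroglia, and its part in these values was not tested.

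Some of these calls against astroglia depended on the cells, libraries or method used, by edgeR's adjusted p unless DESeq2 is named. In 1 setting, cells above 10000 UMIs were left out of both classes, the deep pair among them. Astroglia then fell from 56 to 50 cells in tdTomato-negative 1 and from 292 to 279 in tdTomato-negative 2. Under this setting edgeR called further named genes, among them Arl3 (log2 difference 0.99, adjusted p = 0.00973), S100b (0.96, adjusted p = 0.0251), Apoe (-0.74, adjusted p = 0.0254), Jund (1.10, adjusted p = 0.00676) and Top2a (-1.62, adjusted p = 0.0019). Without tdTomato-negative 1, edgeR's calls were lost for Gfap (adjusted p = 0.479), Rfx3 (0.066), Slc2a1 (0.115), Cst3 (0.0854), Cd9 (0.0996), Hes1 (0.133), Smad5 (0.117), Cnn3 (0.252) and Mt3 (0.114). Without tdTomato-negative 2 they were lost for Gfap (0.306), Rfx3 (0.52), Ift20 (0.133), Cd9 (0.0903), Smad5 (0.055), Cnn3 (0.279) and Mt3 (0.131), and without the tdTomato-positive library for Hes1 (0.237). Leaving out ependymal cells with at least 3 markers of another cell type, which also drops the sum of tdTomato-negative 1, ended the call of Egfr as well (0.0896). Among other genes, DESeq2 did not call Egfr (adjusted p = 0.112), Gfap (0.274), Rfx3 (0.145), Cd9 (0.0972) and Hes1 (0.0537). With no block for library, edgeR's calls were lost for Gfap (0.185), Cd9 (0.136), Hes1 (0.0719), Cnn3 (0.0654) and Mt3 (0.0908). Thinning to 1000 UMIs ended those of Slc2a1 (0.189) and Cd9 (0.312). All of these kept their direction.

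The last comparison was between gates within the class, tdTomato-positive against tdTomato-negative ependymal cells, by edgeR's quasi-likelihood test on 3 sums with 1 residual degree of freedom. The 1 tdTomato-positive sum has no spread of its own and is assumed to vary like the other 2, so gate and library cannot be told apart and each p below compares these libraries. A gene could pass the count filter on 1 library, so some genes entered only through the gate where they were high. Their counts and differences are a description and not support. Of 4235 genes, 44 passed (1.04%), 4 higher (0.0945%) and 40 lower (0.945%) in the tdTomato-positive cells. Without the 2 deep dividing cells, an alternative chosen after the data were seen, 9 of 4257 were higher (0.211%) and 7 lower (0.164%). Without those 2 and the third dividing cell, 11 of 4135 were higher (0.266%) and 5 lower (0.121%). DESeq2 called 1 higher and 7 lower on all cells. It called 0 without the deep cells, with 6 higher and 12 lower at an unadjusted p under 0.05.

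For the ciliary programme, the gate comparison is given as list medians of the log2 difference, tdTomato-positive over tdTomato-negative. The median was 0.33 for the 35 tested dynein genes and 0.25 for 43 spoke and central pair genes. It was 0.13 for 35 transport genes and 0.37 for 6 multiciliation regulators. Without the deep cells the medians were 0.11, -0.04, -0.01 and 0.24 in the same order. Such medians do not show that the gates are alike. Rsph1 differed by 0.02 ± 0.51 and Dnah12 by 0.24 ± 0.52. The 25 tested stem and progenitor genes had a median of 0.11, and Sox2 differed by -0.24 ± 0.57.

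Mural markers of the other cells were highest in the tdTomato-positive library, and the part of RNA from such cells in Acta2 was not tested. Acta2 was the gene nearest to the gate itself. Its level of 586 CPM in tdTomato-positive cells lay above 209 and 236 in tdTomato-negative cells, but the log2 difference of 1.47 ± 0.52 did not pass (edgeR adjusted p = 0.302). Without the deep cells it was 1.19 ± 0.35 (adjusted p = 0.0953), and tdTomato-negative 1 then stood at 356 CPM. Ucma, a secreted matrix protein, stood at 391, 130.4 [222] and 134 CPM. Its difference of 1.65 ± 0.56 did not pass on all cells (adjusted p = 0.226), and passed without the 3 dividing cells (1.36 ± 0.35, adjusted p = 0.0273).

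Genes higher in the tdTomato-positive ependymal cells included products of other cells. Mbp, a myelin protein, stood at 352, 0 and 10.7 CPM, in 111 of 182, 0 of 14 and 2 of 47 cells. Ttr, the transthyretin of choroid plexus, stood at 168, 0 and 0 CPM, in 80 of 182 cells and in none of the rest. Its log2 difference was at least 3.88 against a floor of 3 UMIs. Ttr entered this comparison through the tdTomato-positive library alone, so no p is given. In the same library the astroglia stood at 425 CPM for Mbp and 127 for Ttr, and all other cells at 2237 and 168. Other cells of that library with fewer than 2 further oligodendrocyte markers stood at 339 CPM for Mbp. The choroid plexus markers Kcnj13, Kl and Slc4a5 had no UMI in any kept cell, and the 8 choroid plexus markers summed to 475, 104 and 246 CPM in ependymal cells. C1qa, C1qb and C1qc of microglia rested on few cells: of 63 C1qb UMIs, 55 lay in the members of low axoneme share. Without those members C1qb stood at 13.6, 0 and 0 CPM. The part of free RNA in these values was not tested.

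Others were not markers of a listed cell type. Camk2n1, an inhibitor of CaM kinase, stood at 166, 26.1 [44.5] and 21.4 CPM, a log2 difference of 2.91 ± 0.71. It was seen in 70 of 182, 2 of 14 and 4 of 47 cells. In all other cells it was highest in the tdTomato-positive library too, at 326, 31.8 and 56.2 CPM. Plec, the cytolinker plectin, stood at 144, 26.1 [22.2] and 32.1 CPM, with 46.6, 7.06 and 9.12 CPM in all other cells. Without the deep cells its log2 difference was 2.31 ± 0.59. Kif5a, a kinesin heavy chain, stood at 93.0, 39.1 [44.5] and 0 CPM. Camk2n1, Plec and Kif5a entered this comparison through the tdTomato-positive library alone, so no p is given.

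Genes lower in the tdTomato-positive ependymal cells were those of division and of neuroblasts, and many of the calls rested on the deep cells. Of 21 tested cell cycle genes 13 were lower, but without the 2 deep cells it was 1 of 6 (Hmgb2), and without all 3 dividing cells 0 of 4. Top2a, the mitotic topoisomerase, stood at 0, 665 [66.7] and 69.6 CPM, and at 66.7 CPM in tdTomato-negative 1 without the deep cells, where it did not pass. Hist1h2ap, an S-phase histone, stood at 4.89, 352 [0] and 980.4 CPM, but 25 of its 27 UMIs and 151 of its 183 UMIs in the tdTomato-negative libraries lay in 1 cell each.

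Of 17 genes of the tubulin and neuronal list tested without the 3 dividing cells, 3 were lower (Stmn1, Tubb2b and Tubb5) and 14 did not pass, and DESeq2 called none of all genes. Stmn1, a microtubule destabiliser of neuroblasts, stood at 132, 2347 [623] and 793 CPM (-3.45 ± 0.62, edgeR adjusted p = 7.24e-06). Without the 3 dividing cells the tdTomato-negative sums fell to 623 and 604 CPM, still above 132, and the difference was -2.11 ± 0.33 (adjusted p = 3.28e-07). Tubb2b, a neuronal beta-tubulin, stood at 21.2, 326 [156] and 145 CPM, and without those cells differed by -2.62 ± 0.54. Tubb5 did the same at -1.60 ± 0.38 (adjusted p = 0.0106). Sox11, a neuroblast transcription factor, stood at 9.79, 769 [89.0] and 123 CPM. Without the deep cells it differed by -3.42 ± 0.80, a call that was lost without all 3. Tubb2b and Sox11 entered this comparison through the tdTomato-negative libraries alone, so no p is given for them.

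In the other cells, too, all 4 genes were lowest in the tdTomato-positive library. Stmn1 stood there at 1053, 4746 and 5189.7 CPM and Sox11 at 55.9, 2126 and 1612. Neuroblast markers without Cd24a summed to 47.3 CPM in tdTomato-positive ependymal cells, to 1578 in tdTomato-negative 1 (423 without the deep cells) and to 402 in tdTomato-negative 2. In the other cells they summed to 289, 7046 and 6218 CPM. The part of RNA from these cells in the gate difference was not tested.

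**Figure D5:**
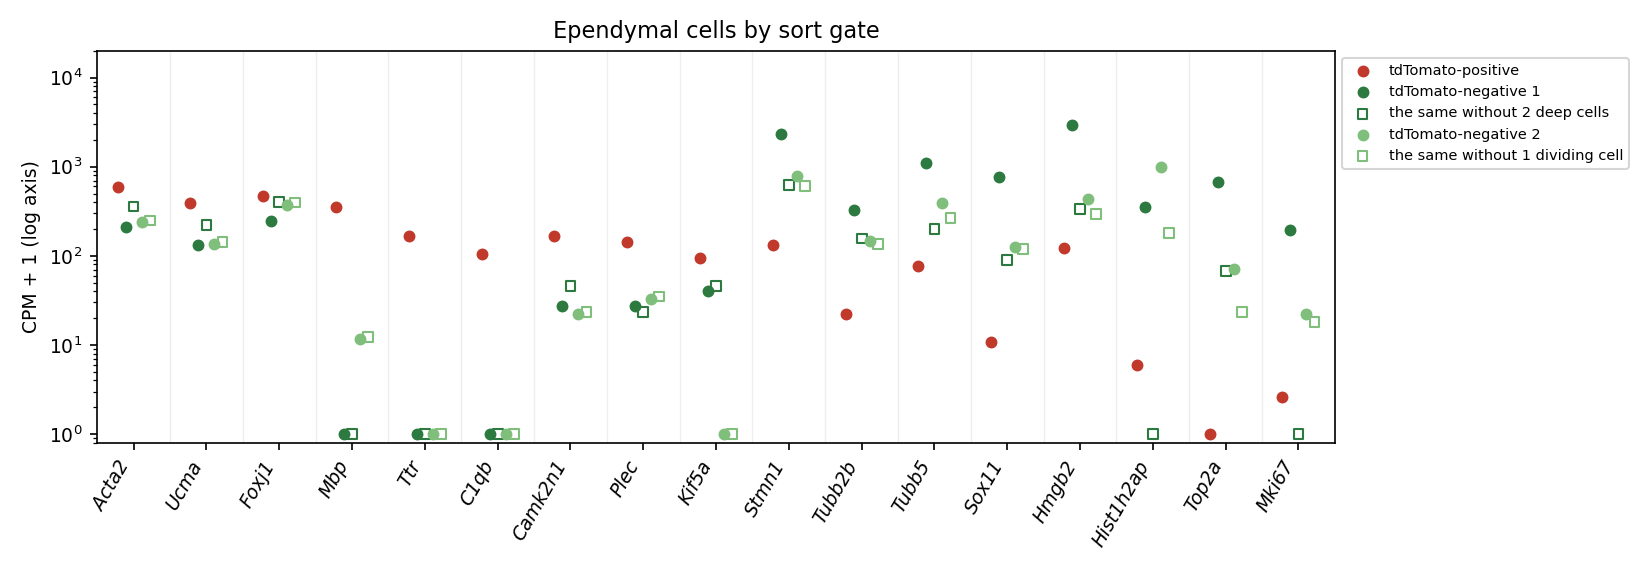
Level (y axis, CPM + 1, log axis) of 17 genes in ependymal cells of each library, with open squares for tdTomato-negative 1 without its 2 deep cells and tdTomato-negative 2 without its dividing cell. Stmn1 stays above 132 CPM in both tdTomato-negative libraries without those cells, while Top2a and Mki67 fall.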

How the data were processed

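Single-cell 3′ libraries (10x v2) gave, per the deposited files, UMI counts for 27998 genes in 1700 barcodes. The submitters' processing notes name Cell Ranger, STAR, Seurat, GRCm38.p5 and mm10, with roles and barcode calling not given in the sources used here. The counts as the authors deposited them carry no normalization. Neither tdTomato nor GFP is among the genes. Cells were kept at 300 genes and 25% mitochondrial UMIs. Doublets were gated at the sort, per the labels, and no caller was run. Counts were summed per library and class (at least 10 cells) and tested with edgeR 4.0.16 (TMM, filterByExpr, quasi-likelihood test, Benjamini-Hochberg at 0.05 over all genes), in R 4.3.3, after a check on simulated data. DESeq2 1.42.0, RLE scaling, other panel thresholds and cell filters, thinning to 1000 UMIs and leaving out libraries were alternatives. Exact intervals are Clopper-Pearson at 95%, from scipy 1.17.1. Named genes were the panel, 11 fixed genes, the 4 with the highest mean level of each of 16 lists, the 10 most over other cells, all that passed between gates if 20 or fewer (otherwise 10 in each direction) and 10 in each direction against astroglia. The members and lists were chosen with earlier results of these data known. Genes and coordinates follow GENCODE vM21 on GRCm38, and 56 symbols are shared by several gene IDs. Some genes of the lists are not reported here by name.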

Additional observations from a re-analysis of the deposited data

How the results depend on the processing

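Between gates, 4 genes were higher and 40 lower. The counts became 1 and 7 with DESeq2 (11 and 61 at an unadjusted p under 0.05), 0 and 0 with no filter on low counts (134 and 106), 57 and 225 with at least 3 of 8 panel genes, 7 and 6 with at least 5, and 0 and 0 after thinning to 1000 UMIs (21 and 13). A pair of alternatives was chosen after seeing the data: leaving out cells above 10000 UMIs gave 9 and 7 (0 and 0 with DESeq2, 6 and 12 unadjusted), and leaving out the 3 cells with at least 6 of 8 division genes gave 11 and 5 (0 and 0 with DESeq2, 6 and 5 unadjusted). Mbp reversed to -0.48 with at least 3 of 8 panel genes (adjusted p = 0.653). The cause was not tested.

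Against astroglia, 653 genes higher became 1004 with no filter and 236 after thinning, and 334 lower became 504 with at least 5 panel genes and 183 after thinning. Leaving out 1 library gave 346 to 856 higher and 183 to 341 lower, the lowest of each without tdTomato-negative 2. With no replicate block it was 651 and 302. Against all other cells, 175 higher and 31 lower became 610 and 190 at 2-fold, 29 and 1 at 8-fold, 403 and 98 with 5 CPM added, 69 and 8 with 50 CPM, and 113 and 4 with at least 3 panel genes. Leaving out 1 library gave 187 to 249 higher and 40 to 58 lower. The 3 shares of ependymal cells stayed within their intervals under each alternative tried.

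No paired analysis was possible between gates because the groups share fewer than 2 replicate numbers. Leaving out mixed cells was not run there, since it left tdTomato-negative 1 with 5 ependymal cells, and leaving out 1 library leaves no residual degree of freedom. Depth limits the rest: 14 ependymal cells in tdTomato-negative 1 and 13 astroglia in the tdTomato-positive library give low genes a few UMIs at most.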

Other observations

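Lsamp and Gria2 were among the 10 genes with the largest decrease against astroglia. Lsamp, a neural cell adhesion protein, stood at 6.52, 0 and 10.7 CPM in ependymal cells against 765, 365 and 322 in astroglia (log2 difference -6.15 ± 0.59). Gria2, an AMPA receptor subunit, stood at 14.7, 39.1 and 10.7 CPM against 1572, 393 and 413 (-5.59 ± 0.55). Lsamp and Gria2 passed the count filter on astroglia UMIs alone, so no p is given. Both were seen in under 10 ependymal cells, Lsamp in 5 and Gria2 in 8, and in 214 and 206 of 361 astroglia.

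Tubulins split by isotype. Tubb4b, the beta-tubulin of axonemes, stood at 1765, 1513 and 1677 CPM against 509.7, 271 and 397 (2.18 ± 0.51, edgeR adjusted p = 1.30e-04). It was the 1 gene of 22 tested in the tubulin and neuronal list to be higher, where 18.0% of all 3627 genes tested were higher. Tubb2b, a beta-tubulin of young neurons, was lower (-2.26 ± 0.44, adjusted p = 3.36e-06). Hist2h2aa1, a histone gene, stood at 233, 261 and 675 CPM against 0, 74.8 and 114 in astroglia (2.41 ± 0.44, adjusted p = 7.22e-07).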
